A study of Homo sapiens with 13 samples.

Results

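The DNA replication machinery was taken as 45 protein-coding genes, of 20033 annotated in GENCODE version 44 on the hg38 build. They were chosen by name: the origin recognition complex with its loading factors, the MCM family, CDC45 and GINS, DNA polymerases alpha, delta and epsilon, the clamp loader RFC, the clamp PCNA, the single-strand binding protein RPA, and the flap endonuclease and ligase that finish the lagging strand. For each gene, peaks were taken within 1 kb of the transcription start site (TSS), set at the 5′ end of the annotated gene, and elsewhere in the gene body.

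The peaks came from MOLM-13, an established cell line of human acute myeloid leukemia that was the source of all 13 libraries, with no treatment named in the labels. In CUT&Tag, where an antibody directs a transposase to a chromatin protein, there were 2 biological replicates each for PTBP1 and RUNX1 and 1 library for the control antibody IgG. In CUT&RUN, where a nuclease is directed in the same way, PTBP1, RUNX1, the histone mark H3K27me3 and IgG had 2 biological replicates each. Results rest on 1 list of PTBP1 peaks and 1 list of RUNX1 peaks, which name no replicate, so the spread between cultures is unknown and only counting error can be given.

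Replication starts when ORC, CDC6 and CDT1 load the MCM2-7 ring onto origins in G1. CDC45 and GINS then turn the ring into the moving helicase, polymerase alpha-primase lays primers, polymerases epsilon and delta extend the strands on the PCNA clamp, and RPA covers single-stranded DNA. Many of these genes are known to be transcribed together at the G1/S boundary through E2F factors. PTBP1 regulates splicing through pyrimidine-rich stretches of RNA. RUNX1 is a DNA-binding transcription factor of blood cells.

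PTBP1 was found at the start of 24 genes (53.3%), compared with 26.4% of all protein-coding genes. RUNX1 peaks were present at 17 (37.8%), against 21.3% of all genes. Both peaks were present at 15 genes (33.3%, against 17.3%): MCM3, MCM7, MCM9, ORC6, CDC6, CDT1, CDC45, GINS2, POLD1, POLD3, POLE, POLE3, POLE4, RPA2 and LIG1. PTBP1 alone was found at 9 genes (20%, against 9.05%): MCM2, MCM4, ORC1, GINS1, GINS4, POLA2, POLD4, PCNA and RPA1. RUNX1 alone was found at 2 genes, PRIM1 and RFC2 (4.44%, against 3.98%). The other 19 genes (42.2%, against 69.7%) had neither peak: MCM5, MCM6, MCM8, MCM10, ORC2, ORC3, ORC4, ORC5, GINS3, POLA1, PRIM2, POLD2, POLE2, RFC1, RFC3, RFC4, RFC5, RPA3 and FEN1. Elsewhere in the gene body, 7 genes (15.6%, against 12.4%) had a PTBP1 peak and 3 (6.67%, against 11.5%) had a RUNX1 peak, so that the PTBP1 share lay near the background and the RUNX1 share below it. No test was made of these shares, because the genes were named with earlier results of these data known.

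**Figure D1:**
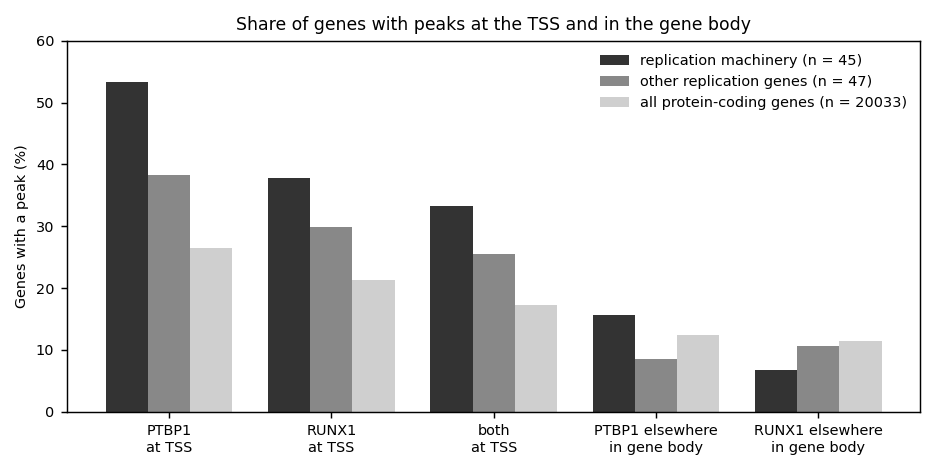
Bars give the percentage of genes with a peak at the TSS (within 1 kb) or elsewhere in the gene body, for the 45 replication machinery genes, 47 other replication genes and all 20033 protein-coding genes, on an axis from 0. At the TSS the replication machinery bars reach 53.3% for PTBP1 and 37.8% for RUNX1, above the 26.4% and 21.3% of all genes, while in gene bodies the PTBP1 bar (15.6%) lies near that of all genes (12.4%) and the RUNX1 bar (6.67%) below it (11.5%).

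The bars for TSS peaks show the same order for PTBP1, RUNX1 and both, with the replication machinery highest and all genes lowest. Of the genes with a PTBP1 peak, 62.5% of the replication genes and 65.7% of all genes also had a RUNX1 peak. Of those with a RUNX1 peak, the shares that also had a PTBP1 peak were 88.2% and 81.3%. A second list held 47 genes that act beside the machinery, from origin firing to nucleotide supply. It had PTBP1 peaks at 18 TSSs (38.3%, against 26.4% of all genes), RUNX1 peaks at 14 (29.8%, against 21.3%) and both at 12 (25.5%, against 17.3%).

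The sequence before the start sites is shown for a few genes of each class, with motif matches marked. Each stretch is read 5′ to 3′ on the strand of the gene and ends 1 base before the start used. Capitals mark matches on either strand to E2F (TTTGGCGC, TTTCCCGC, TTTGCCGC or TTTCGCGC), RUNX (TGTGGT or TGCGGT) and CCAAT. Stretches were cut where an exon of any gene began, which left nothing to print for MCM7 and only 66 bases for POLE3. For GINS2 and PCNA the stretch before the start of the canonical transcript was added after the values were seen, since peaks lay there. CDC45 (chr22:19479207-19479456, plus strand), GINS2 (chr16:85688955-85689204, minus strand, canonical start) and POLE3 (chr9:113410676-113410741, minus strand) are genes with both peaks. PCNA (chr20:5126627-5126876 at the 5′ end and chr20:5119959-5120208 at the canonical start, both minus strand) had PTBP1 alone and RFC2 (chr7:74254459-74254708, minus strand) RUNX1 alone. MCM6 (chr2:135876444-135876693, minus strand) and MCM5 (chr22:35399884-35400133, plus strand) had neither.
CDC45: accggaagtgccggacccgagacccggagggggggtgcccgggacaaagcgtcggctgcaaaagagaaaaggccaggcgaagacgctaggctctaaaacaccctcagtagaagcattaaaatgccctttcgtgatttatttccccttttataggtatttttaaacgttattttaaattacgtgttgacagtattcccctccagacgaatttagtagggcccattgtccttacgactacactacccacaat
GINS2: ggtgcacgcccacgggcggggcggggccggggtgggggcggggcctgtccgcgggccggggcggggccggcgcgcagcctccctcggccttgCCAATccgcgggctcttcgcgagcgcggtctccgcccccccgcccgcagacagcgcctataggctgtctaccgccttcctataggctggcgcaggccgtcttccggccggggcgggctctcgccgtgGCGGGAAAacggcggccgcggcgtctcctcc
POLE3: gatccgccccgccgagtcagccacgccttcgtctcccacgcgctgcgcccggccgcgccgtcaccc
PCNA 5′ end: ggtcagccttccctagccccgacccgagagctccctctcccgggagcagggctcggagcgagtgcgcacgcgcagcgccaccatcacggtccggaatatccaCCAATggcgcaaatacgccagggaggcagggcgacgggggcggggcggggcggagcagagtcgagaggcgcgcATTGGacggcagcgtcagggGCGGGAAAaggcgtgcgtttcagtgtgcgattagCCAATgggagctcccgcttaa
PCNA canonical start: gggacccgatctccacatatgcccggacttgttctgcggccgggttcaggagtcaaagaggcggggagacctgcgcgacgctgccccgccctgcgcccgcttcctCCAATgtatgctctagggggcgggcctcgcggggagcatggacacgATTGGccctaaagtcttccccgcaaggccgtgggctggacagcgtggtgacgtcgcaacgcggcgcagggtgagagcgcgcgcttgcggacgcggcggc
RFC2: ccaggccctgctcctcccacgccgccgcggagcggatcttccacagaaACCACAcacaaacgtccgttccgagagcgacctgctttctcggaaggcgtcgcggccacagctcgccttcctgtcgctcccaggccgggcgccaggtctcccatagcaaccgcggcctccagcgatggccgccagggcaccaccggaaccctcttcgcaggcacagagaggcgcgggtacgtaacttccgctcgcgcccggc
MCM6: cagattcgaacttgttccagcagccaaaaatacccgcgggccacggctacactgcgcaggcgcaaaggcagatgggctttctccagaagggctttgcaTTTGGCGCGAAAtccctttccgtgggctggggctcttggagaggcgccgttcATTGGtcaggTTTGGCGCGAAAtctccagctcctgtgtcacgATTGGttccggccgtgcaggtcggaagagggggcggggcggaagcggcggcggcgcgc
MCM5: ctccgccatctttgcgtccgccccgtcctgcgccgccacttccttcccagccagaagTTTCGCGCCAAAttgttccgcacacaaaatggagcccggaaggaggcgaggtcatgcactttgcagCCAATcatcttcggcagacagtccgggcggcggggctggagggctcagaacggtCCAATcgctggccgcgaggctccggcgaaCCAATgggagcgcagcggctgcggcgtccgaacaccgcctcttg

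Capitals are absent from CDC45 and POLE3, whose start sites carried some of the highest folds of the 45 genes in each list. MCM6, with no peak, holds 2 stretches in which E2F matches on the 2 strands overlap, and MCM5, also with no peak, holds 1 such stretch and 3 CCAAT matches. Both genes were printed because they lack peaks and hold E2F matches, so the presence of E2F there was fixed by the choice. RFC2 holds a single RUNX match 202 bases before its start.

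Strength is given below as the fold enrichment of the authors' peak caller at the summit, the fragment count there plus 1 over the background plus 1. The background was 0.72 fragments for PTBP1 and 0.33 fragments for RUNX1 at every peak described here but 1, so the same number of fragments gives a higher fold in the RUNX1 list. Folds are therefore compared within a list and not between lists. Fragment counts at the summit were recovered from the deposited values, with exact 95% Poisson intervals that cover counting error only. A gene without a peak is one where no listed peak lay within reach, not one without signal, since the weakest listed peaks had 11 fragments (PTBP1) and 8 fragments (RUNX1).

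**Figure D2:**
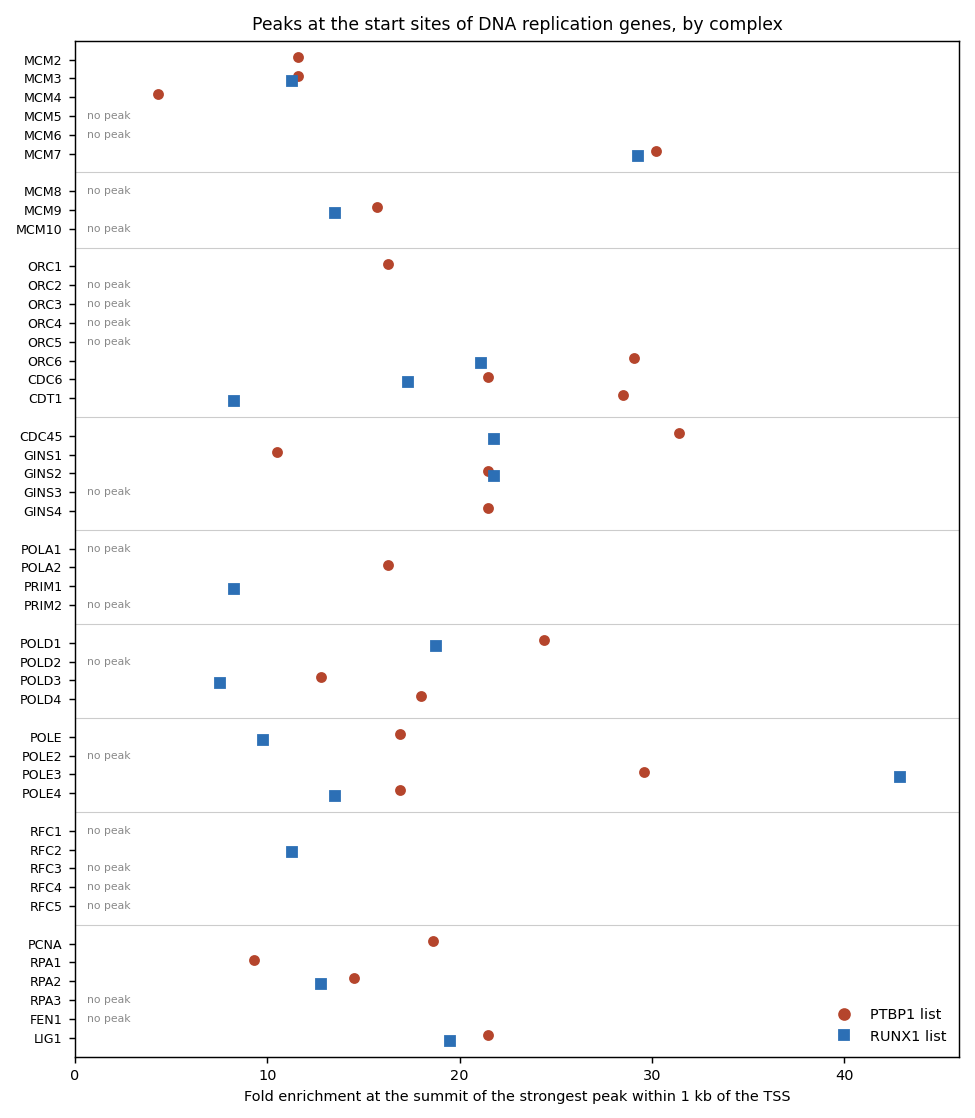
Each row is 1 gene, grouped by complex (from the top MCM2-7, other MCM, licensing factors, CDC45 and GINS, polymerases alpha, delta and epsilon, RFC, and PCNA with RPA, FEN1 and LIG1), and the horizontal axis is the fold enrichment of the strongest peak within 1 kb of the TSS. Circles (PTBP1) run from 4.33 at MCM4 to 31.4 at CDC45, squares (RUNX1) run from 7.52 at POLD3 to 42.9 at POLE3, and 19 genes are marked as having no peak.

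The plot of folds by gene shows peaks spread over every complex, with RFC the only one that had no PTBP1 peak at a TSS. Peaks were fewest at RFC, where 1 of 5 genes had any. PTBP1 peaks were most frequent at CDC45 and GINS (4 of 5) and the polymerase epsilon and delta subunits (3 of 4 each). Over all genes 26.4% had a PTBP1 peak and 69.7% had neither peak, so the RFC count lay near the background. Differences between these small groups were not tested.

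Among the licensing genes, 4 of 8 had a PTBP1 peak and 3 of those a RUNX1 peak. ORC1, the largest ORC subunit, had PTBP1 alone (chr1:52403976-52404917, fold 16.3, 27 fragments, interval 17.8 to 39.3), with its summit nearer to PRPF38A. ORC6, the smallest subunit, had strong peaks in both lists. Its PTBP1 peak (chr16:46688790-46690141) had a fold of 29.1 from 49 fragments (36.3 to 64.8) and its RUNX1 peak (chr16:46688715-46690146) a fold of 21.1 from 27 fragments (17.8 to 39.3). The 2 ORC6 summits lay 2 bases apart, but both were nearer to the start of VPS35, a retromer gene that starts 125 bases away. ORC2, ORC3, ORC4 and ORC5, which form the core of the complex with ORC1, had no peak of either list at the TSS or in the body.

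CDC6, the ATPase that joins ORC, had a PTBP1 fold of 21.5 (chr17:40287595-40288346, 36 fragments) and a RUNX1 fold of 17.3 (chr17:40287520-40287877, 22 fragments). CDT1, which brings the MCM ring to ORC, had a PTBP1 peak among the strongest of the set and a RUNX1 peak among the weakest. Its PTBP1 fold was 28.5 (chr16:88802287-88807983, 48 fragments, 35.4 to 63.6) and its RUNX1 fold 8.27 (chr16:88803156-88803748, 10 fragments, 4.8 to 18.4). The PTBP1 peak at CDT1 was 5697 bases wide, over a gene of 5.47 kb, and was the widest TSS peak of the set, against a median of 674 bases. A further PTBP1 peak of fold 8.72 lay in the 3′ untranslated part of CDT1 exon 10.

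Of the 6 genes of the MCM2-7 ring, 4 had a PTBP1 peak and 2 also a RUNX1 peak. MCM7 had the highest fold of the ring in each list, with a PTBP1 fold of 30.2 (chr7:100100581-100102024, 51 fragments, 38.0 to 67.1) and a RUNX1 fold of 29.3 (chr7:100100576-100102077, 38 fragments, 26.9 to 52.2). The peaks had almost the same ends, yet their summits were 471 bases apart, the widest separation of the 15 pairs, and both summits were nearer to AP4M1, which starts 391 bases from MCM7. MCM3 had folds of 11.6 (PTBP1, chr6:52284554-52285006, 19 fragments) and 11.3 (RUNX1, chr6:52284664-52284996, 14 fragments). MCM2 had PTBP1 alone at 11.6 (chr3:127598107-127598430, 19 fragments, 11.4 to 29.7), with its summit nearer to TPRA1.

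MCM4 was the exception in background. Its PTBP1 peak (chr8:47960305-47960823) had 29 fragments over a background of 5.93, which is 8.24 times the usual level, and so a fold of only 4.33. Without peaks of raised background the PTBP1 count fell from 24 to 23 genes. MCM4 starts 7 bases from PRKDC, the catalytic subunit of DNA-PK. MCM5 and MCM6, which complete the ring, had no peak.

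Outside the ring, MCM9, a helicase of homologous recombination, had both peaks, of fold 15.7 (PTBP1, chr6:118934569-118935283, 26 fragments) and 13.5 (RUNX1, chr6:118934556-118935283, 17 fragments). Their upstream ends fell on the same base, but the RUNX1 summit lay 383 bases further into the gene. MCM8, its partner, and MCM10, which acts when the helicase starts, had neither.

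CDC45, the factor that joins the ring to make it an active helicase, had the highest PTBP1 fold at a TSS in the set, 31.4 (chr22:19479029-19479881, 53 fragments, 39.7 to 69.3). Its RUNX1 fold was 21.8 (chr22:19479100-19479846, 28 fragments, 18.6 to 40.5), and the summits lay 6 and 1 bases from the TSS. The stretch printed above ends at that position. Of the 23 PTBP1 peaks at the usual background, 14 (CDC45 among them) had intervals that reached that of CDC45, and 9 lay wholly below it, so the order at the top is not resolved.

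GINS, the 4-subunit partner of CDC45, had a PTBP1 peak at 3 of its genes. GINS2 had both, of fold 21.5 (PTBP1, chr16:85688475-85689565, 36 fragments) and 21.8 (RUNX1, chr16:85688420-85689560, 28 fragments), with summits 1 base apart. These lay 1021 and 1020 bases into the gene as annotated but 98 and 99 bases before its canonical start, within the GINS2 stretch printed above. GINS4 (chr8:41528875-41529196, fold 21.5, 36 fragments) and GINS1 (chr20:25390366-25391050, fold 10.5, 17 fragments) had PTBP1 alone. The GINS1 peak lay at a 5′ end shared with ABHD12, whose start was nearer to the summit. The canonical GINS1 start is 16665 bases further downstream. GINS3 had neither.

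Polymerase alpha-primase was split between the lists, with no gene holding both peaks. POLA2, its regulatory subunit, had PTBP1 alone at a fold of 16.3 (chr11:65261745-65262408, 27 fragments, 17.8 to 39.3), with the summit 7 bases from the TSS. PRIM1, the catalytic primase subunit, had RUNX1 alone at a fold of 8.27 (chr12:56752145-56752507, 10 fragments, 4.8 to 18.4), with the summit 11 bases from the TSS. POLA1, the catalytic polymerase subunit, and PRIM2, the large primase subunit, had neither.

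For polymerase delta, 3 of 4 genes had PTBP1 and 2 also RUNX1. POLD1, the catalytic subunit, had folds of 24.4 (PTBP1, chr19:50383911-50385295, 41 fragments, 29.4 to 55.6) and 18.8 (RUNX1, chr19:50384059-50384907, 24 fragments, 15.4 to 35.7), with summits 32 bases apart. POLD3 had the weakest RUNX1 peak of the set, 7.52 from 9 fragments (chr11:74493154-74493587, 4.12 to 17.1), beside a PTBP1 fold of 12.8 (chr11:74493124-74493671, 21 fragments). Both POLD3 summits lay nearer to LIPT2. POLD2 had neither.

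POLD4, the smallest delta subunit, depended on which start was used. At the 5′ end of the gene it had PTBP1 alone, with a fold of 18.0 (chr11:67357038-67357439, 30 fragments). At its canonical start, 3426 bases downstream, lay a PTBP1 peak of fold 44.2 (chr11:67353258-67354219, 75 fragments, 59.0 to 94.0) and a RUNX1 peak of fold 29.3 (chr11:67353443-67353949, 38 fragments, 26.9 to 52.2). Both had their summit on the same base, 125 bases before the canonical start. That PTBP1 fold was above every TSS peak of the 45 genes, and it counts as a gene-body peak by the rule used here.

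Polymerase epsilon had both peaks at 3 of 4 genes. POLE3, a histone-fold subunit, had a PTBP1 fold of 29.6 (chr9:113410150-113410811, 50 fragments, 37.1 to 65.9) and a RUNX1 fold of 42.9 (chr9:113410306-113411083, 56 fragments, 42.3 to 72.7). The latter was the highest RUNX1 fold of the set, and 15 of its 17 RUNX1 peaks had intervals wholly below it, all but POLE3 and MCM7. POLE4, which pairs with POLE3, had folds of 16.9 (PTBP1, chr2:74958325-74958980, 28 fragments) and 13.5 (RUNX1, chr2:74958432-74958956, 17 fragments) with both summits in coding exon 1. POLE, the catalytic subunit, had folds of 16.9 (PTBP1, chr12:132687080-132688039, 28 fragments) and 9.77 (RUNX1, chr12:132687233-132687631, 12 fragments), with summits 3 bases apart and nearer to PXMP2. POLE2 had neither.

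RFC, which opens PCNA and loads it on primed DNA, was the group with fewest peaks, though its count lay near the share over all genes. RFC2 had RUNX1 alone, at a fold of 11.3 (chr7:74254268-74254861, 14 fragments, 7.65 to 23.5), 247 bases before the TSS. RFC1, RFC3, RFC4 and RFC5 had none in either list, at the TSS or in the body.

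PCNA, the sliding clamp, had PTBP1 alone at its 5′ end, with a fold of 18.6 (chr20:5126724-5127169, 31 fragments), and that summit was nearer to CDS2. At its canonical start, 6668 bases downstream, a PTBP1 peak of fold 16.9 (chr20:5119479-5120183, 28 fragments) had its summit in the 5′ untranslated part of exon 1, and a RUNX1 peak of fold 11.3 (chr20:5119441-5120026, 14 fragments) in the coding part. PCNA is thus a gene with both peaks when the canonical start is used. Of the RPA genes, RPA2 had folds of 14.5 (PTBP1, chr1:27914593-27914869, 24 fragments) and 12.8 (RUNX1, chr1:27914313-27915030, 16 fragments), and RPA1 had PTBP1 alone at 9.3 (chr17:1829606-1829966, 15 fragments, 8.4 to 24.7). RPA3 had no peak at its 5′ end. Its body held a PTBP1 peak of fold 12.2 and a RUNX1 peak of fold 24.8, both nearest to the start of UMAD1. They also lay within 1 kb of the start of another coding transcript of RPA3. RPA3 is thus a gene with both peaks when the start of any coding transcript is used.

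LIG1, which seals Okazaki fragments, had folds of 21.5 (PTBP1, chr19:48169753-48170778, 36 fragments) and 19.5 (RUNX1, chr19:48170025-48170667, 25 fragments). FEN1, which trims the flap before ligation, had none, and its nearest PTBP1 peak was 21817 bases away.

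**Figure D3:**
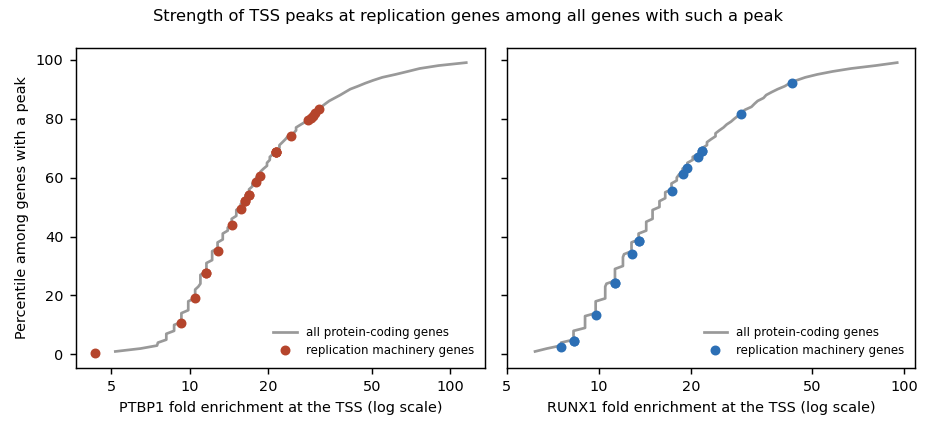
Points are the strongest TSS peaks of the replication machinery genes (24 for PTBP1, left, and 17 for RUNX1, right), placed by fold enrichment (log axis) and by percentile among all genes with a TSS peak of that list, which the gray line shows. Points follow the gray line by construction and extend over most of it, with medians of 17.4 (PTBP1, all genes 15.7) and 13.5 (RUNX1, all genes 15.8).

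The percentile plot shows that having a peak and having a strong one were different matters. The median PTBP1 fold of the 24 genes was 17.4 (quartiles 14.1 and 22.2), beside 15.7 for all genes with such a peak (11.0 and 25). The median RUNX1 fold of the 17 genes was 13.5 (11.3 and 21.1), beside 15.8 (11.3 and 24.1). Within the set, genes with both peaks had a median PTBP1 fold of 21.5 and genes with PTBP1 alone 16.3, and over all genes these medians were 19.2 and 11.6.

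Where both proteins had a peak, the peaks overlapped, as they did at nearly all genes of this class. All 15 pairs shared bases (3439 of 3469 over all genes), 13 (86.7%, against 79.6%) had summits at most 200 bases apart, and the median summit distance was 41 bases (1 to 471), beside 79 bases over all genes. MCM7 and MCM9 were the 2 pairs further apart. Genes with a higher PTBP1 fold tended to have a higher RUNX1 fold (Spearman rho 0.739 across 15 genes, 0.559 across all 3469). This is a description across genes that share libraries and chromatin features, not replicates.

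**Figure D4:**
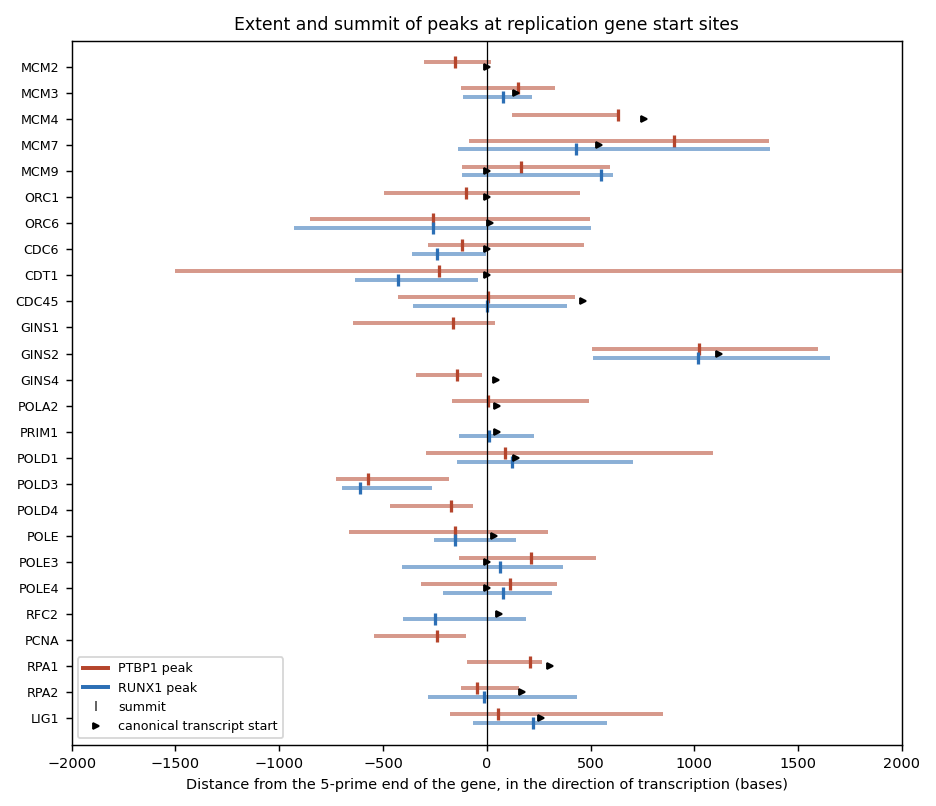
Each row is 1 of the 26 genes with a TSS peak. Lines span the peaks (PTBP1 upper, RUNX1 lower), ticks mark summits and triangles the start of the canonical transcript where it lies within the plot, against the distance in bases from the 5′ end of the gene. Of the 24 PTBP1 peaks, 18 cover position 0, as do 13 of the 17 RUNX1 peaks, GINS2 lies about 1 kb downstream, and the CDT1 line runs past the right edge.

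The map of peaks around the start sites shows summits on both sides. For PTBP1, 12 summits lay upstream and 12 downstream, at a median distance of 158 bases from the TSS (181 for all genes). For RUNX1, 7 lay upstream and 10 downstream, at a median of 223 bases (190 for all genes). With only peaks that cover position 0, there were 18 PTBP1 genes (40%, against 19.9% of all genes) and 13 RUNX1 genes (28.9%, against 15.5%), and GINS2, GINS4, MCM4, POLD3, POLD4 and PCNA then had neither.

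Many replication genes share a promoter with another coding gene, and a peak there cannot be given to one gene. Another coding start lay within 1 kb at 20 replication genes and at none of the other 25. Over all genes these counts were 3478 with such a neighbour and 16555 without, a smaller share with one. The TSS shares given earlier were not adjusted for this difference, and its part in them was not tested. Of the 20 genes with another coding start within 1 kb, 14 (70%) had a PTBP1 peak and 8 (40%) a RUNX1 peak. Over all such genes the shares were 48.3% and 37.3%. The summit was nearer to the neighbour in 8 of the 14 and 4 of the 8. Of the 25 genes without such a neighbour, 10 (40%) had PTBP1 and 9 (36%) RUNX1, beside 21.8% and 17.9% of all genes without one. These 10 were MCM3, MCM9, CDC6, CDT1, GINS2, GINS4, POLD1, POLD4, POLE4 and RPA2. For RUNX1 the gap to all genes was wider at promoters without a neighbour than at shared ones. For PTBP1 it was slightly wider at shared ones. Both contrasts rest on few genes and were not tested.

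The annotated 5′ end was more than 1 kb from the canonical start at 8 of 45 genes (GINS1, GINS2, GINS3, PRIM2, POLD3, POLD4, RFC5 and PCNA). Over all genes this held for 3320 of 20033, a similar share. Around canonical starts, 22 genes had PTBP1 (48.9%, against 27.5% of all genes), 18 RUNX1 (40%, against 22.4%), 16 both (35.6%, against 18.2%) and 21 neither (46.7%, against 68.2%). POLD4 and PCNA gained RUNX1, while GINS1 and POLD3 lost their peaks. Low CpG content at the 5′ end went with absence of peaks at several genes. The CpG content observed over expected had a median of 0.898 at genes with both peaks and 0.741 at genes with neither (0.844 and 0.56 over all genes). It was 0 at RPA3 and PRIM2, 0.0807 at RFC5, 0.143 at ORC4, 0.145 at RFC4 and 0.16 at GINS3. None of these had a peak at that 5′ end, while POLD4, at 0.0436, had. MCM5 (1.03) and MCM6 (1.05) had no peak at high CpG content. The part of CpG content in the presence of peaks was not tested.

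In gene bodies the 45 genes had 8 PTBP1 peaks and 3 RUNX1 peaks. By length this was 3.19 PTBP1 peaks per Mb, beside 3.18 over all genes, and 1.2 RUNX1 peaks per Mb, beside 2.28. The PTBP1 peaks were at MCM7 (intron 11, fold 7.56), CDT1, GINS2 (intron 2, fold 9.88), POLD1 (intron 24, fold 8.72), POLD4 (folds 44.2 and 10.5), PCNA and RPA3. The RUNX1 peaks were at POLD4, PCNA and RPA3 and each overlapped a PTBP1 peak. When peaks within 1 kb of the start of any coding transcript were left out, 4 genes with a PTBP1 body peak (8.89%, against 8.52% of all genes) and 0 with a RUNX1 body peak (against 8.28%) remained.

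Of the motifs examined, E2F stood furthest above its share in all promoters. From 250 bases before to 50 after the TSS, 14 of 45 (31.1%) held an E2F match, against 3.82% of all protein-coding promoters: MCM2, MCM3, MCM5, MCM6, MCM8, CDC6, CDT1, POLA1, POLA2, POLE, POLE4, RFC3, PCNA and RPA2. Around canonical starts, a window chosen after the values were seen, the count was 22 (48.9%, against 4.36%). Matches were present with and without peaks. They lay in 6 of 15 promoters with both peaks, 3 of 9 with PTBP1 alone, 0 of 2 with RUNX1 alone and 5 of 19 with neither. Around canonical starts they lay in 10, 4, 0 and 8 of the same classes. Over all genes the shares of these classes were 5.45%, 5.08%, 5.77% and 3.14% at the TSS.

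**Figure D5:**
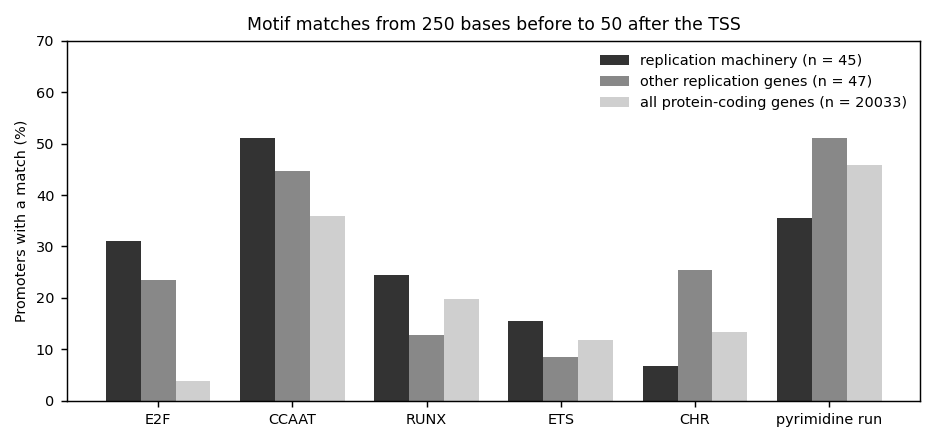
Bars give the percentage of promoters (250 bases before to 50 after the TSS) with at least 1 motif match on either strand, for the 45 replication machinery genes, 47 other replication genes and all 20033 protein-coding genes, on an axis from 0. The E2F bars stand at 31.1%, 23.4% and 3.82%, while the RUNX bars stand at 24.4%, 12.8% and 19.8%.

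The other motifs in the plot of promoter matches were nearer to their share in all promoters. CCAAT, the site of NF-Y, was in 23 of 45 promoters (51.1%, against 35.9%). The RUNX motif was in 11 (24.4%, against 19.8%), the ETS motif CCGGAAG in 7 (15.6%, against 11.9%), the CHR motif TTTGAA in 3 (6.67%, against 13.3%) and a run of at least 12 pyrimidines on either strand in 16 (35.6%, against 45.9%). RUNX matches were in 3 of 15 promoters with both peaks (20%, against 21.2% of all genes of that class) and 3 of 9 with PTBP1 alone (33.3%, against 14.7%). They were also in both promoters with RUNX1 alone (PRIM1 and RFC2, against 28.9%) and 3 of 19 with neither (15.8%, against 19.6%).

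The windows under the summits were shorter and held fewer matches than the promoters. CCAAT was the most frequent, within 50 bases of the RUNX1 summit at 5 of 17 genes (29.4%, against 17.2% of all RUNX1 summits at a TSS) and of the PTBP1 summit at 5 of 24 (20.8%, against 17.5%). Within 50 bases of the RUNX1 summit, 4 of 17 genes (ORC6, PRIM1, POLE and RFC2) held a RUNX match, a share of 23.5%, against 12.7% of all RUNX1 summits at a TSS. Within 50 bases of the PTBP1 summit, 3 of 24 (MCM2, ORC6 and POLE) held one, 12.5% against 6.99%. E2F matches lay there at 2 genes for PTBP1 (MCM3 and POLA2, 8.33% against 1.31%) and at 1 for RUNX1 (MCM9, 5.88% against 1.64%). A pyrimidine run lay under 3 of 24 PTBP1 summits, 12.5% against 14.3%. A match is only a string of letters and does not show that a factor was bound.

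Genes that mark myeloid blasts gave little to check the cell label with. None of 8 (SPI1, CEBPA, MPO, CD33, CSF1R, FLT3, MEIS1 and HOXA9) had a TSS peak in either list. PTBP1 peaks lay in the body of SPI1 and MPO and RUNX1 peaks in the body of CSF1R, FLT3 and HOXA9. Peaks do not measure expression, so these counts do not check the label.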

How the data were processed

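Libraries of MOLM-13 were grouped by antibody and assay from their labels, and 13 libraries fell into 7 groups. Per the labels and methods, the authors trimmed paired reads with cutadapt, aligned them to hg38 with Bowtie2, kept mapping quality over 30, removed duplicates and used MACS3 for peak calling (q-value 1e-07). The submitters' processing notes also name FastQC, SAMtools, Picard and bedtools 2.30.0. The deposited lists (9370 PTBP1 and 7688 RUNX1 peaks) state no assay and no pooling of replicates, and were taken as CUT&Tag because peak calling is described for it. They hold the fold enrichment at the summit as a ratio, the authors' −log10 p-value and q-value, a score derived from the q-value, and the summit offset, and 0 columns of samples outside the series. Total depth was not used here. Fragments and background at each summit were solved from the fold and −log10 p-value (largest difference 0.00134), which was tested on simulated data.

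Peaks were joined to 20033 GENCODE version 44 genes with Python 3.11.15, numpy 2.4.6, pandas 2.3.3, scipy 1.17.1, pysam 0.24.0 and matplotlib 3.10.9. A TSS peak had any base within 1 kb of the 5′ end of the gene, and a body peak was any other in the gene. A background above 1.5 times its usual value was called raised. Coordinates count from 1. Sequence came from hg38, for the 4 genes with both peaks and the highest value of their lower fold (a choice of what to print that sets folds of both lists side by side), the strongest gene of each single-list class and 2 genes without peaks but with E2F matches, leaving out chromosome 8. All 45 genes were named. The genes, the second list and the motifs were chosen with earlier results of these data known, so no test was made. Alternatives changed the TSS rule, the peak threshold, the background, the fragment minimum, shared promoters, the extent of the gene body, peak overlap and the motif or window.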

Additional observations from a re-analysis of the deposited data

How the results depend on the processing

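Of 62 alternative values, 52 stayed within 1.5 times the reported count or median and 10 did not. RUNX1 TSS peaks fell from 17 to 10 genes at a −log10 q of at least 20 (22.2%, against 13.5% of all genes). Among genes without a coding neighbour, which number 25 in place of 45, there were 10 PTBP1, 9 RUNX1 and 8 shared. These are 40%, 36% and 32%, against 21.8%, 17.9% and 14.1% of all genes without one. PTBP1 body genes fell from 7 to 4 without starts of any coding transcript (8.89%, against 8.52% of all genes). They fell to 2 at a −log10 q of at least 20 (4.44%, against 6.66%). RUNX1 body genes fell from 3 to 0 without such starts (against 8.28%). The E2F count rose from 14 to 22 around canonical starts, an alternative chosen after seeing the data. The RUNX motif count of 11 became 26 from 500 bases before to 500 after the TSS (57.8%, against 51.8% of all genes) and 6 with TGTGGT alone (13.3%, against 12.4%). No paired analysis was possible because the lists carry no replicates, and for the same reason no replicate could be left out. PTBP1 peaks under 11 fragments and RUNX1 peaks under 8 were below what was listed.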

Other observations

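Among 13 genes of the E2F, DP and RB families, the transcription factors and pocket proteins known for control of the G1/S genes, 4 carried PTBP1, 3 RUNX1 and 2 both at the TSS. The shares over all genes were 26.4%, 21.3% and 17.3%, so these counts lay near the background. E2F1 had folds of 14.0 (PTBP1) and 13.5 (RUNX1), and its dimer partner TFDP1 had 14.5 and 9.77. E2F4 (7.56) and E2F8 (10.5) had PTBP1 alone and RBL1 (9.77) RUNX1 alone. E2F2, E2F3, E2F5, E2F6, E2F7, TFDP2, RB1 and RBL2 had no TSS peak.

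Among 6 genes of nucleotide supply, 3 had a PTBP1 peak and 4 a RUNX1 peak, beside 26.4% and 21.3% of all genes. The thymidine kinase gene TK1 had folds of 44.2 and 21.1, the thymidylate synthase gene TYMS 11.0 and 10.5, and DUT, which removes dUTP, 8.72 and 10.5. RRM2, the inducible subunit of ribonucleotide reductase, had RUNX1 alone at its 5′ end, at 10.5, and RRM1 had neither. At the canonical RRM2 start, 2041 bases downstream, a PTBP1 peak of fold 10.5 and a RUNX1 peak of fold 16.5 overlapped. RRM2 is thus a gene with both peaks when the canonical start is used. Among histone chaperones, ASF1B had 47.7 (PTBP1) and 21.8 (RUNX1) and CHAF1A a PTBP1 fold of 37.2, while ASF1A and CHAF1B had neither. Among topoisomerases, TOP2B, the isoform not tied to the cell cycle, had 11.6 and 40.6, while TOP1 and TOP2A had neither.

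Of 9 origin firing genes, GMNN (9.3 and 21.8) and RECQL4 had both peaks, CDC7 had PTBP1 alone (8.72) and 6 had neither. Over all genes 69.7% had neither, so this count lay near the background. The PTBP1 peak at RECQL4 was 10012 bases wide with its summit 4531 bases from the TSS. Of 12 fork proteins and clamp cofactors, 3 had both peaks, beside 17.3% of all genes. These were CLSPN, TIMELESS and TIPIN, which act together at the fork, with PTBP1 folds of 15.1, 19.2 and 14.0 and RUNX1 folds of 9.02, 12.8 and 15.0. Both TIPIN summits were nearer to MAP2K1, which starts 91 bases from the TIPIN 5′ end. The canonical TIPIN start is 30061 bases further downstream. CHTF18 (8.8) and RNASEH2C (15.1) had PTBP1 alone, and 7 had neither, beside 69.7% of all genes. The CHTF18 peak had 60 fragments over a raised background of 5.93, and the RNASEH2C peak 25 fragments over the usual one, so these 2 folds are not comparable. An E2F match lay in 11 of these 47 promoters (23.4%, against 3.82% of all).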
